A study of Gallus gallus with 12 samples.

Results

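The 12 arrays of a study of chicken embryonic hearts were split by the log2 signal of 1 probe set of HINTW, a gene of the female-specific W chromosome. The sides were chosen by that measured signal. Arrays with a HINTW log2 signal of 13 or more form the high side (7 of 12 arrays), and arrays under 13 form the low side (5 of 12 arrays). Every difference between the sides is therefore given here as a description without a test. The study hybridised RNA of embryonic hearts of Tibetan Chicken (T), Shouguang Chicken (S) and Dwarf Recessive White Chicken (DRW), incubated in hypoxia (H) or in normoxia (N), with 2 arrays in each of the 6 groups. The eggs of a breed were full sibs, per the design text. The sources used here give no sex, embryonic age, oxygen level or number of hearts per array. Nothing in the labels says that the 2 arrays of a group came from separate embryos, so every p-value is read against a spread that may be technical.

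In birds the female carries a Z and a W chromosome, and the male carries a pair of Z chromosomes. Most genes on the avian Z are only partly compensated for this difference in dose, so many Z-linked transcripts are more abundant in male tissue. HINTW is a W-linked relative of HINT1, a histidine triad nucleotide-binding protein, and is transcribed in females only. In a pool of hearts of both sexes, more female hearts and more W-linked RNA per female heart cannot be told apart.

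Breed and oxygen are not balanced over the split. All 4 T arrays were on the high side. The S arrays divided exactly by oxygen, with both hypoxia arrays low and both normoxia arrays high. Of the 4 DRW arrays, hypoxia replicate 1 was high and the other 3 were low. The high side therefore held 3 hypoxia and 4 normoxia arrays, and the low side 3 and 2. Only DRW hypoxia had an array on each side.

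Of the 38439 non-control probe sets, the 23063 with a mean log2 signal of at least 6.31 were compared, a limit set at the 40th percentile (a signal of 79.5). They stand for 10276 genes. Median signals of the arrays were 134 to 155. The 21 measured cardiomyocyte markers, such as the contractile genes TNNT2 and MYL2, averaged 12.99 to 13.32 log2 over the 12 arrays. Their median difference, high minus low, was 0.05, and none had sides that did not overlap. MYH7, a myosin heavy chain gene, differed most among them, with means of 7.89 log2 on the high arrays and 10.02 log2 on the low arrays and sides that overlapped.

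The HINTW probe set behind the split had a log2 signal of 14.18 and 13.89 in T hypoxia, 14.01 and 14.10 in T normoxia, 14.40 and 13.33 in S normoxia and 14.42 in DRW hypoxia replicate 1. On the low side it had 12.10 and 12.13 in S hypoxia, 12.88 in DRW hypoxia replicate 2, and 7.74 and 12.93 in DRW normoxia. The high array nearest the threshold was S normoxia replicate 2 at 13.33, and the low array nearest to it was DRW normoxia replicate 2 at 12.93. The gap between them was smaller than the difference of 1.07 log2 between the 2 S normoxia arrays.

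As a share of the brightest array, the linear HINTW signal was 46.9% to 100% on the high side (median 80.0%) and 0.973% to 35.5% on the low side (median 20.4%). DRW normoxia replicate 1, with a signal of 213.5 against 21934 on the brightest array, stood far below the other 4 low arrays. The mean difference, high minus low, was 2.49 log2 and 1.54 log2 without that array. A further HINTW probe set averaged 9.42 ± 0.50 log2 on the high arrays (SD, n = 7) and 7.84 ± 1.04 log2 on the low arrays (SD, n = 5). Its sides overlapped, because S normoxia replicate 2 (8.42) lay under DRW hypoxia replicate 2 (8.75) and DRW normoxia replicate 2 (8.68).

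The reference gene table placed 17 genes with probe sets on W, of which 14 were measured. Counting HINTW, 10 of the 14 had sides that did not overlap, all with the higher values on the high arrays. Over all 23063 probe sets, 0.269% were separated in this direction and 0.373% in the other. Of the 21 W-linked probe sets measured, 11 were separated with higher values, 0 with lower values, and 15 had a difference above 0. The 11 and the 15 include the HINTW probe set behind the split, and the 15 also include the further HINTW probe set. The probe sets with a difference below 0 were those of NEDD4L, which has several, and LOC425347. The rule used this contrast, so these counts describe how other W-linked genes followed HINTW. The limit for being measured applied to the mean of all arrays. SPIN1L, LOC374195, LOC427010 and LOC107055438 had low-side means of 5.61, 5.45, 5.22 and 5.98 log2, under that limit. They were measured only through the high arrays, which favours genes that are high there.

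Among the 9 other separated W-linked genes the difference was 0.81 to 2.71 log2, and 0.75 to 2.50 log2 without DRW normoxia replicate 1. With additive terms for breed and oxygen it was 0.68 to 2.79 log2. UBE2R2L, the W-linked relative of a ubiquitin-conjugating enzyme, averaged 9.60 ± 0.38 log2 on the high arrays and 6.96 ± 2.82 log2 on the low arrays (SD, n = 7 and 5). Its high arrays spanned 8.98 to 10.03 log2 with a median of 9.52. Its low arrays had 8.14 and 8.04 in S hypoxia, 8.22 in DRW hypoxia replicate 2, and 1.92 and 8.47 in DRW normoxia. A single array therefore carried much of the difference of 2.64 log2, which was 1.39 log2 without it. With signals raised to the limit of 6.31 log2 the difference was 1.77 log2. A further UBE2R2L probe set, also separated, had 6.05 log2 on DRW normoxia replicate 1. Its difference was 1.61 log2, and 1.29 log2 without that array.

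LOC374195, listed with the older name CHD1W, had 7.20 to 8.56 log2 on the high arrays (median 8.16). On the low arrays it had 6.55 and 6.47 in S hypoxia, 6.24 in DRW hypoxia replicate 2, and 1.77 and 6.24 in DRW normoxia. Part of the low side lay under the dim limit, and with signals raised to that limit the difference of 2.61 log2 became 1.67 log2. SPIN1L, the W-linked relative of the chromatin reader gene SPIN1, had 7.74 to 8.33 log2 on the high arrays (median 7.95). Its low arrays had 5.87 and 6.89 in S hypoxia, 5.85 in DRW hypoxia replicate 2, and 1.84 and 7.61 in DRW normoxia. Of these 3 genes, all had their lowest value on DRW normoxia replicate 1.

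LOC430910 differed by 1.98 log2, LOC431003 by 1.49 log2 and LOC107049459 by 1.48 log2, high minus low. Without DRW normoxia replicate 1 the same differences were 1.37, 1.28 and 1.14 log2. UBAP2L2, a W-linked relative of the ubiquitin-associated protein gene UBAP2, differed by 1.63 log2 and by 1.60 log2 without that array. UBAP2L2 thus rested less on DRW normoxia replicate 1. LOC107055438 was faint, with a difference of 0.81 log2 that became 0.48 log2 with signals raised to the dim limit. LOC427010 differed by 2.71 log2, and by 1.55 log2 with signals raised to the limit, under which 4 of its 5 low arrays lay.

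HNRNPKL, a W-linked relative of the RNA-binding protein gene HNRNPK, differed by 2.24 log2, yet its sides overlapped. On the high side it had 9.70 log2 in S normoxia replicate 1, a value lower by 0.71 log2 in replicate 2, and 10.31 to 10.57 log2 on the T and DRW arrays. On the low side it had 7.45 and 7.47 log2 in S hypoxia, 9.59 in DRW hypoxia replicate 2, and 5.53 and 9.40 in DRW normoxia. The S arrays were low for their side: S normoxia replicate 2 lay under 2 of the DRW arrays of the low side. T minus S for HNRNPKL was 2.04 ± 0.59 log2 in limma (estimate ± standard error), which did not pass (Benjamini-Hochberg adjusted p = 0.154). Values after ± are standard errors for every limma contrast and slope below.

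3 genes that the table places on W did not follow HINTW. MBD2, a reader of methylated DNA, averaged 11.35 ± 0.17 log2 on the high arrays and 11.27 ± 0.11 log2 on the low arrays (SD, n = 7 and 5). NEDD4L, a ubiquitin ligase gene, averaged 10.84 ± 0.18 and 11.01 ± 0.14 log2 on the same sides. LOC425347 averaged 8.00 ± 0.48 and 8.16 ± 0.31 log2. Across the 12 arrays, Pearson's r with HINTW was 0.66 to 0.99 for the 9 other separated genes, 0.19 for MBD2 and -0.58 for NEDD4L, given as a description because HINTW chose the split.

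**Figure D1:**
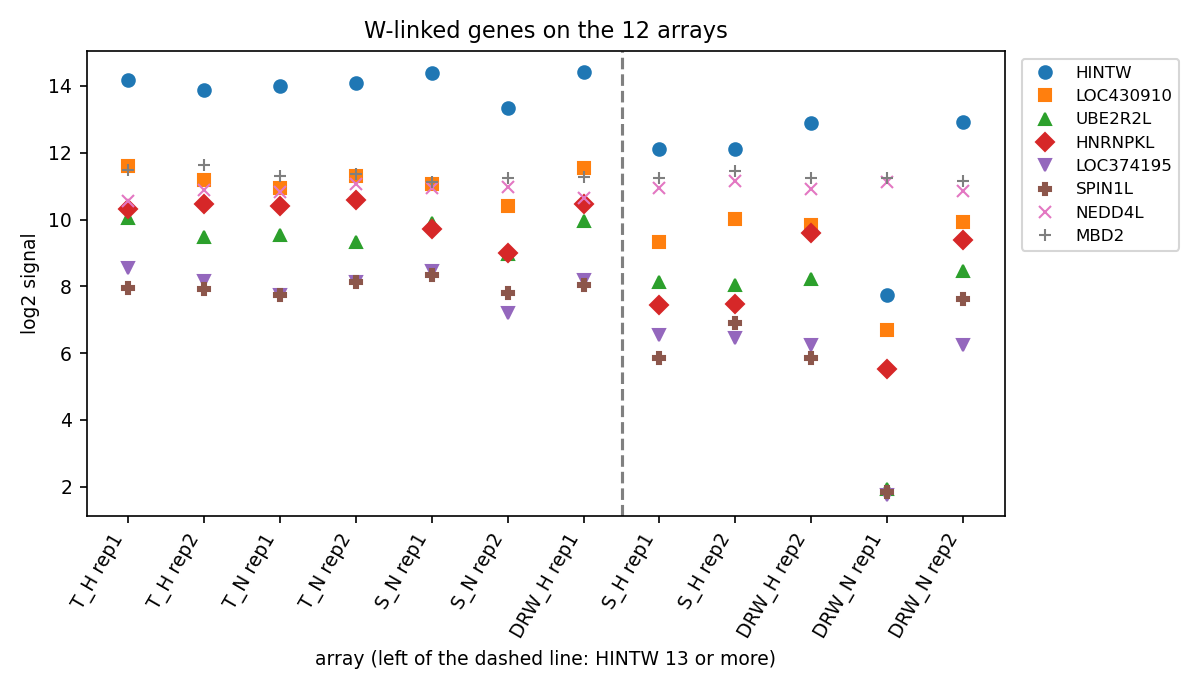
Log2 signal of 8 W-linked genes on each of the 12 arrays, with the 7 high arrays left of the dashed line and the 5 low arrays right of it. DRW normoxia replicate 1 is the dimmest array for HINTW (7.74) and UBE2R2L (1.92), while MBD2 and NEDD4L, which average 11.35 and 10.84 on the high arrays, show no split.

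Lower values on the high arrays lay mostly on Z. Of the 86 probe sets separated in that direction, 51 were Z-linked (59.3%), 24 autosomal and 11 without a place. They amount to 6.57% of the 776 measured Z-linked probe sets, beside 0.139% of the 17234 autosomal ones and 0.373% of all. In the other direction, 11 of 62 separated probe sets were W-linked (17.7%), 2 Z-linked, 35 autosomal and 14 without a place. The 11 include the HINTW probe set behind the split. Per gene, with the brightest probe set each, 41 of 478 Z-linked genes were separated with lower values and 2 with higher values. The rule used this contrast, so the counts are a description.

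The shift was broad rather than limited to the separated genes. The difference was below 0 for 380 of 478 Z-linked genes (79.5%) and for 48.2% of 9766 autosomal genes. Its median was -0.19 log2 on Z and 0.01 log2 on the autosomes. The middle of the Z distribution, from the 25th to the 75th percentile, ran from -0.36 to -0.04 log2, and that of the autosomes from -0.09 to 0.11 log2.

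**Figure D2:**
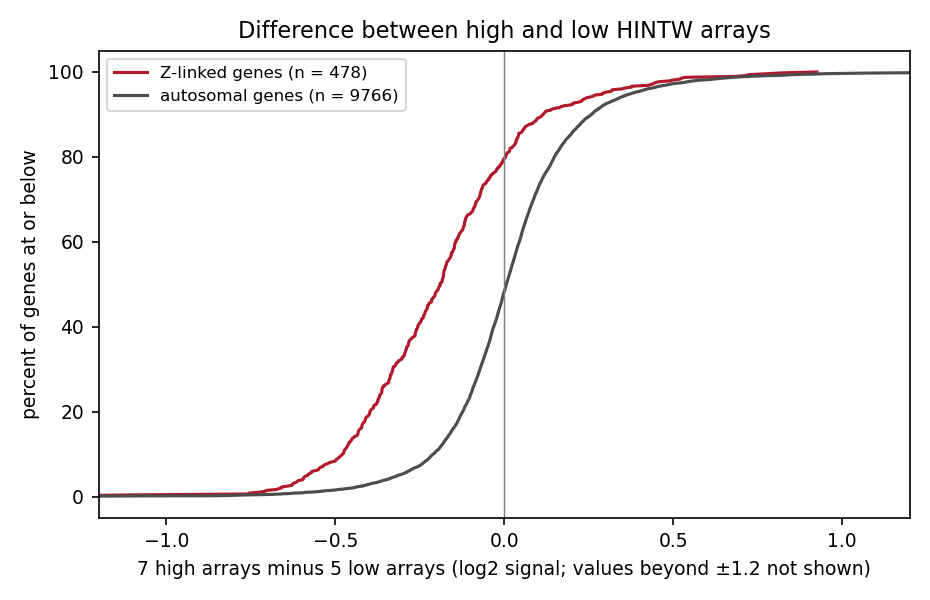
Cumulative distribution (percent of genes at or below a value) of the difference in log2 signal, high minus low arrays, for 478 Z-linked and 9766 autosomal genes. The Z-linked curve lies left of the autosomal one, with medians of -0.19 and 0.01; values beyond the drawn range are not shown.

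The mean log2 signal of the Z-linked genes minus that of the autosomal genes was taken as a Z level for each array. It was -0.31 and -0.19 in T hypoxia, -0.27 and -0.20 in T normoxia, -0.35 and -0.17 in S normoxia and -0.34 in DRW hypoxia replicate 1. On the low side it was -0.13 and -0.03 in S hypoxia, -0.07 in DRW hypoxia replicate 2, and -0.02 and -0.06 in DRW normoxia. The sides averaged -0.26 ± 0.08 (SD, n = 7) and -0.06 ± 0.05 (SD, n = 5) and did not overlap.

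**Figure D3:**
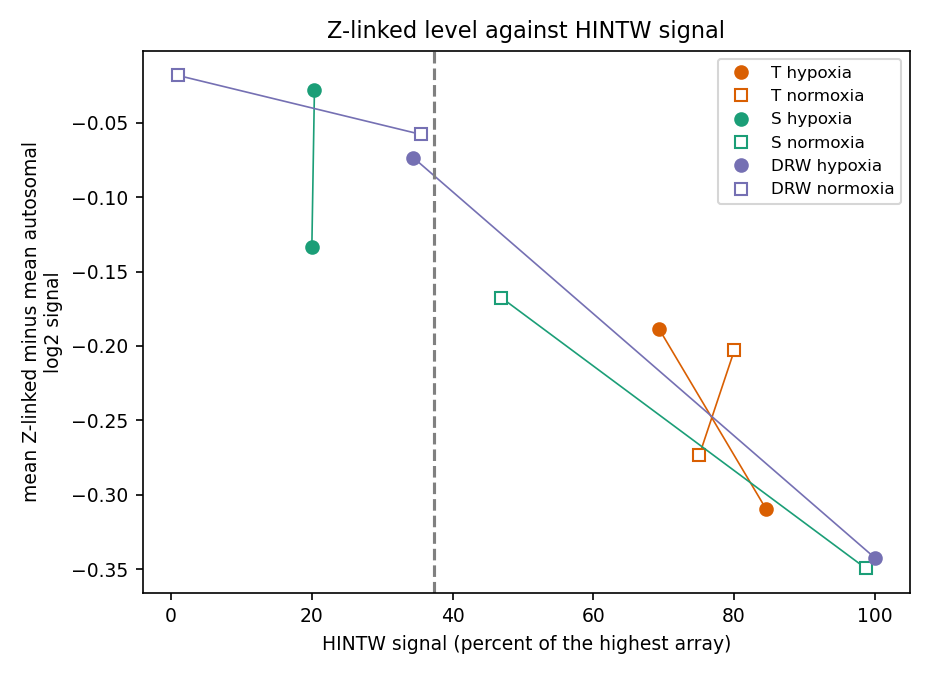
Z level of each array, in log2, against its HINTW signal as a percent of the brightest array, with the 2 arrays of a group joined and the threshold of the split dashed. The high arrays lie at -0.35 to -0.17 and the low arrays at -0.13 to -0.02.

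Per-array values are given for Z-linked genes with the lowest differences among those with separated sides. SKIV2L2, a helicase of the nuclear RNA exosome, had 10.35 to 11.19 log2 on the high arrays (median 10.77). On the low arrays it had 11.53 and 11.64 in S hypoxia, 11.42 in DRW hypoxia replicate 2, and 11.22 and 11.52 in DRW normoxia. Its difference was -0.71 log2, with the nearest values of the sides 11.19 and 11.22 log2. TTC37, of the Ski complex that serves the cytoplasmic exosome, had 9.56 to 10.23 log2 on the high arrays (median 9.79) and 10.37 to 10.60 log2 on the low arrays.

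DIMT1, a methyltransferase of ribosomal RNA, had 9.51 to 9.72 log2 on the high arrays (median 9.58) and 10.12, 9.85, 10.36, 10.44 and 10.39 log2 on the low arrays in the order S hypoxia, DRW hypoxia replicate 2 and DRW normoxia. Its high arrays lay close together, and its difference was -0.63 log2. UTP15, of the processome of the small ribosomal subunit, differed by -0.59 log2. TARS, the threonyl-tRNA synthetase gene, had 11.64 to 12.26 log2 on the high arrays (median 11.90) and 12.37 to 12.55 log2 on the low arrays, a difference of -0.56 log2. For TARS the nearest values of the sides were 12.26 and 12.37 log2.

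The remaining named Z-linked genes were ARSK, an arylsulfatase gene, at -0.58 log2, HAUS1, of the augmin complex of the spindle, at -0.55 log2, and SMC2, a condensin subunit, at -0.55 log2. SMC2 had 11.06 to 11.55 log2 on the high arrays (median 11.34) and 11.72, 11.71, 12.04, 12.10 and 11.77 log2 on the low arrays in the same order. Only SLC1A1 and AK3 among the 478 Z-linked genes were separated with higher values on the high arrays. SLC1A1, a glutamate transporter gene, had 7.22 to 7.77 log2 on the high arrays and 6.10 to 7.08 log2 on the low arrays, a difference of 0.72 log2. AK3, a mitochondrial adenylate kinase gene, differed by 0.68 log2. The nearest values of its sides were 10.6203 and 10.6194 log2, so they barely failed to overlap. T minus DRW for AK3 was 0.87 ± 0.14 log2 in limma (Benjamini-Hochberg adjusted p = 0.0132). With the HINTW signal as a covariate or without the intensity trend the call for AK3 was lost (adjusted p up to 0.16), and it was lost without DRW hypoxia replicate 2, DRW normoxia replicate 1, T hypoxia replicate 1 or T normoxia replicate 1 (adjusted p up to 0.062).

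**Figure D4:**
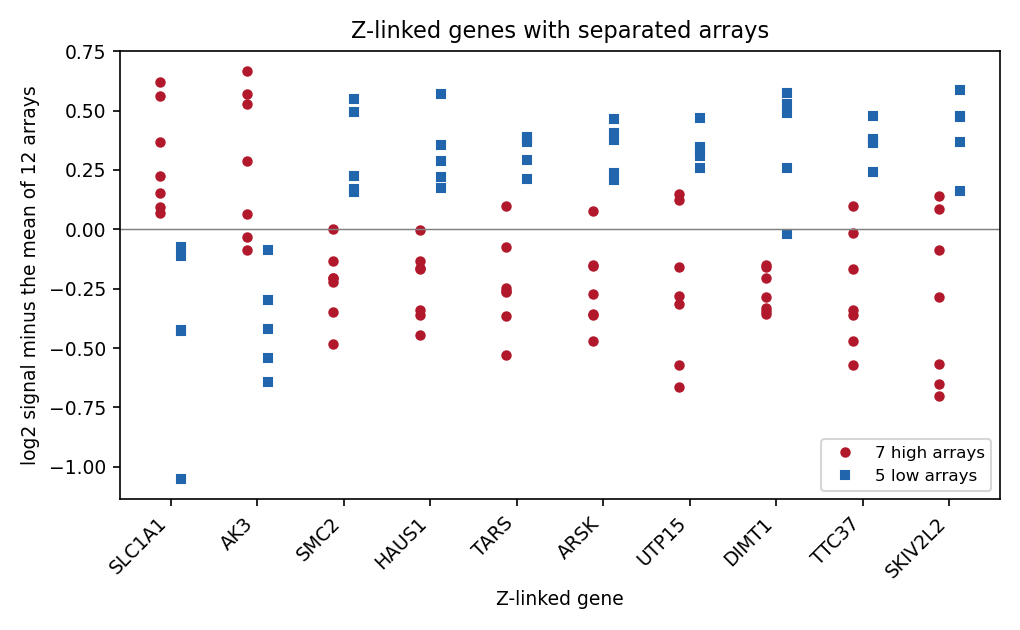
Log2 signal minus the mean of the 12 arrays for the 10 named Z-linked genes, with a point per array and the 7 high arrays drawn left of the 5 low arrays. For SLC1A1 and, very narrowly, AK3 every high array lies above every low array. For SKIV2L2, TTC37, DIMT1, TARS and SMC2 every high array lies below every low array.

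A list of genes with copies on both Z and W was taken as a further set. Of its 27 genes, 19 were measured and 16 of these were Z-linked outside NEDD4L, HINTW and the autosomal GGNBP2. The difference was below 0 for 15 of the 16, with a median of -0.26 log2, and 4 were separated: SPIN1 (-0.47), TXNL1 (-0.42), UBE2R2 (-0.30) and BTF3 (-0.26). Of all 478 Z-linked genes, 79.5% were below 0, with a median of -0.19 log2, and 41 were separated with lower values. Whether the 16 differ from other Z-linked genes was not tested. SPIN1 and UBE2R2 have W-linked relatives, SPIN1L and UBE2R2L, that were higher on the high arrays. CHD1 differed by -0.06 log2 while LOC374195, its listed W relative, differed by 2.61 log2. ZSWIM6, at 0.31 log2, was the exception among the 16.

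Genes off the sex chromosomes were named by the size of their difference among those with separated sides. The 8 highest were FAM78B (1.39), TET3 (1.17), CAPN13 (1.11), GC (0.94), COR8 (0.83), MCF2 (0.74), PKNOX1 (0.63) and OR10A4 (0.53), in log2. Of the 5 low arrays, 3 lay under the dim limit for FAM78B, 2 for TET3, 4 for CAPN13, 2 for COR8 and 5 for OR10A4. With signals raised to that limit the differences became 1.09, 0.84, 0.69, 0.65 and 0.32 log2. FAM78B, TET3, CAPN13 and OR10A4 had low-side means of 6.10, 6.25, 5.92 and 6.09 log2, under the limit. These genes were measured only through the high arrays, which favours genes that are high there. TET3 encodes an oxidase of methylated cytosine, GC a vitamin D carrier of the plasma, and COR8 and OR10A4 olfactory receptors. The 8 lowest were C2orf76 (-0.59), RAB11B (-0.50), CYP1B1 (-0.50), NAPEPLD (-0.44), COL8A1 (-0.41), MSMO1 (-0.37), HSPA5 (-0.36) and RBMXL3 (-0.27). HSPA5, the chaperone BiP of the endoplasmic reticulum, had 12.73 to 13.12 log2 on the high arrays and 13.13 to 13.52 log2 on the low arrays, so its sides were separated by little. Breed and oxygen were not held fixed in these differences. Hypoxia minus normoxia in S was 0.53 ± 0.13 log2 for HSPA5 and -1.82 ± 0.45 log2 for TET3. Neither passed in limma (Benjamini-Hochberg adjusted p = 0.672 and 0.682). Between the 2 arrays of a group, CYP1B1 was higher on the array with more HINTW in S normoxia (0.18) and DRW normoxia (0.29). In DRW hypoxia CYP1B1 was lower there (-0.38).

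Apart from the HINTW marker and the list of Z and W copies, none of the 17 lists had a separated member. The gonad and germ cell list had 6 measured members and a median difference of 0.14 log2, and the sex hormone receptor list had 3 and -0.04 log2. Of the genes for plasma proteins from yolk sac and liver, 9 of 10 measured were above 0, with a median of 0.67 log2, where 49.6% of all 10276 genes were below 0 and the median was 0.00 log2. Their mean level was 7.42 to 9.69 log2 on the high arrays and 7.03 to 8.19 log2 on the low arrays, so the sides overlapped. Of the fibroblast and matrix genes 8 of 9 were below 0 (median -0.19 log2), of the red blood cell genes 9 of 12 (-0.24 log2) and of the neural genes 4 of 6 (-0.27 log2). ALB, the albumin gene, differed by 2.19 log2 between the sides, yet by 0.08 log2 between the 2 DRW hypoxia arrays. Hypoxia minus normoxia in S was -4.39 ± 0.71 log2 for ALB in limma and did not pass (Benjamini-Hochberg adjusted p = 0.22). The part of these cell type and plasma transcripts in the differences above was not tested.

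GHR, the growth hormone receptor gene, lies on Z and differed by -1.10 log2, high minus low, but its values followed breed. It had 10.20 to 11.20 log2 on the T and S arrays and 12.24 to 12.59 log2 on all 4 DRW arrays, whichever side they were on. In limma, T minus DRW was -1.85 ± 0.14 log2 (Benjamini-Hochberg adjusted p = 5.03e-05) and S minus DRW was -1.84 ± 0.14 log2 (adjusted p = 0.000101). Both GHR calls held in all 10 other settings and with each of the 12 arrays left out. With breed and oxygen as additive terms the difference between the sides of the split was -0.37 log2.

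Comparing the 2 arrays of a group holds breed and oxygen fixed. In each of the 6 pairs the array with more HINTW signal was set against the other. HINTW differed by 1.54 log2 in DRW hypoxia, 5.19 in DRW normoxia and 1.07 in S normoxia, and by 0.29, 0.09 and 0.03 log2 in T hypoxia, T normoxia and S hypoxia. On the linear scale the first 3 differences were 65.5, 34.5 and 51.7 percentage points of the brightest array. The DRW normoxia and S normoxia pairs lie within 1 side each, so the split did not use them, while the DRW hypoxia pair crosses it.

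The Z-linked genes had a median difference of -0.29 log2 in the DRW hypoxia pair, -0.21 log2 in the S normoxia pair and -0.05 log2 in the DRW normoxia pair. In these pairs 75.3%, 73.0% and 58.6% of Z-linked genes were lower on the array with more HINTW. In T hypoxia the Z median was -0.12 log2. In T normoxia and S hypoxia, whose arrays hardly differed in the HINTW probe set behind the split, it was 0.04 and 0.08 log2. Taken the same way round, the further HINTW probe set differed by -0.30 log2 in T normoxia and by 1.51 log2 in S hypoxia. Autosomal medians lay between -0.01 and 0.01 log2 in all 6 pairs. The 13 other W-linked genes had median differences of 1.28, 0.54 and 1.47 log2 in DRW hypoxia, S normoxia and DRW normoxia. In T hypoxia, T normoxia and S hypoxia these medians were 0.10, 0.25 and -0.08 log2. The DRW normoxia value rests in part on signals under the dim limit, and is lower with signals raised to it. With signals raised to that limit, the difference there became 1.26 log2 for LOC107049459 and 0.50 log2 for LOC431003. It became 0 for LOC374195, LOC427010 and LOC107055438, and stayed at 3.23 log2 for LOC430910 and 3.09 log2 for HNRNPKL.

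**Figure D5:**
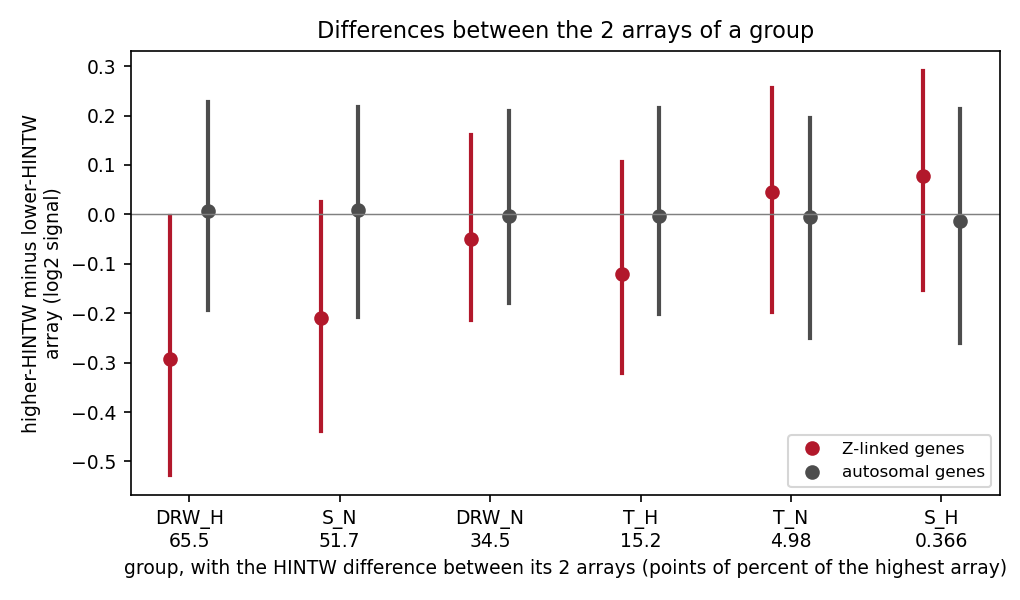
Differences in log2 signal between the 2 arrays of each group, array with more HINTW minus array with less, for Z-linked and autosomal genes, with points at the medians and bars from the 25th to the 75th percentile. Z-linked medians are lowest in DRW hypoxia (-0.29) and S normoxia (-0.21), and autosomal medians lie between -0.01 and 0.01.

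The same pairs can be read gene by gene, in the order DRW hypoxia, DRW normoxia and S normoxia. LOC430910 was higher on the array with more HINTW by 1.69, 3.23 and 0.64 log2. UBE2R2L was higher by 1.75, 2.16 and 0.90 log2, with the value of DRW normoxia replicate 1 raised to the dim limit. LOC374195 was higher by 1.88 log2 in DRW hypoxia, with replicate 2 raised to the limit, and by 1.25 log2 in S normoxia, while both DRW normoxia arrays lay under the limit. NEDD4L had -0.30, -0.28 and -0.06 log2, so this gene did not go with the W-linked genes in any of these pairs. On Z, TTC37 had -0.85, -0.23 and -0.41 log2, TARS -0.63, -0.09 and -0.62 log2, and SMC2 -0.84, -0.32 and -0.20 log2. SKIV2L2 had -1.07, 0.31 and -0.71 log2, so in DRW normoxia its difference ran the other way. DIMT1 had -0.70 log2 in DRW hypoxia, and -0.05 and -0.01 log2 in the pairs that the split did not use.

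Across the 3 pairs that differed by over 1 log2 in HINTW, 230 of 776 Z-linked probe sets (29.6%) were lower in all 3, beside 9.39% of autosomal ones and 10.1% of all. 14 of 21 W-linked probe sets (66.7%) were higher in all 3, beside 11.1% of all. The 14 include the HINTW probe set that ordered the arrays of each pair, so its direction was fixed. The further HINTW probe set is also among the 14. Those not higher in all 3 pairs were the probe sets of NEDD4L, which has several, MBD2 and LOC425347. Among the 51 separated Z-linked probe sets, 46 were lower in the S normoxia pair and 43 in the DRW normoxia pair, with medians of -0.23 and -0.09 log2. Of all Z-linked genes, 73.0% and 58.6% were lower in these pairs. Separation was judged on values of these same arrays, so the counts are a description. The direction in DRW hypoxia is fixed by the split. Among 35 autosomal probe sets separated with higher values, 20 were higher in the S normoxia pair and 18 in the DRW normoxia pair. Among the 24 separated with lower values, 16 were lower in the S normoxia pair and 9 in the DRW normoxia pair. Of all autosomal genes, 48.6% and 50.4% were lower in these pairs.

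A test with breed and oxygen held fixed did not pass. The slope of Z level on HINTW signal within groups was -0.35 log2 over the full range of HINTW, with 4 of 6 pairs in that direction (two-sided exact permutation test over 64 swaps, p = 0.125). The smallest p these swaps allow is 0.0312. The pairs that ran the other way were T normoxia and S hypoxia. Their arrays differed by 4.98 and 0.366 percentage points in the HINTW probe set behind the split, which gave the signal for this slope. The further HINTW probe set differed by 1.51 log2 between the S hypoxia arrays. Swapping arrays that differ so little in the signal used hardly moves the slope, so this p could not decide the question. In limma with a mean for each group and the HINTW signal of the array as a covariate, 0 of 23062 probe sets passed after Benjamini-Hochberg adjustment, with 959 at an unadjusted p under 0.05. Of these, 153 were Z-linked probe sets with a negative slope, 19.7% of those on Z, beside 1.99% of all, and 6 were Z-linked with a positive slope, 0.773% beside 2.16%. Without either array of the DRW hypoxia pair, the only pair that crosses the split, the count with a negative slope was 35 (4.51% of Z, beside 1.34% of all). With log2 HINTW as covariate the count was 18 (2.32%, beside 1.04%). On that scale the DRW normoxia pair differed most, by 5.19 log2, and no other pair by more than 1.54 log2.

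At an unadjusted p under 0.05, 12 of the 20 W-linked probe sets tested had a positive slope, beside 2.16% of all. None had a negative one, beside 1.99% of all. The 12 include the further HINTW probe set (2.45 ± 0.77 log2), so there the gene was set against its own signal. The smallest p was that of C1orf35, an autosomal gene, with a slope of 2.28 ± 0.32 log2 (adjusted p = 0.413), while its other probe set had -1.06 log2. LINGO2, a Z-linked gene, followed with 4.44 ± 0.70 log2 (adjusted p = 0.575), with values of 4.57 log2 in DRW hypoxia replicate 2 and 5.05 log2 in S normoxia replicate 2, both under the dim limit. DCTN3, a dynactin subunit gene on Z, had -0.88 ± 0.17 log2, CKS2, a Z-linked regulator of cyclin-dependent kinases, had -1.24 ± 0.24 log2, and LOC431003 on W had 2.26 ± 0.47 log2 (adjusted p = 0.937 for each).

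In other settings of the same fit some probe sets did pass. With log2 HINTW as covariate 11 passed, all with a positive slope and 6 of them W-linked. That covariate differed by 5.19 log2 in the DRW normoxia pair and by at most 1.54 log2 in any other pair. The fit therefore leans on DRW normoxia replicate 1, where UBE2R2L, SPIN1L and LOC374195 lay under the dim limit (1.92, 1.84 and 1.77 log2). With the mean of the other W-linked genes 10 passed, 6 of them W-linked, which are themselves part of that covariate. With additive breed and oxygen terms in place of 6 group means, 14 passed: 7 Z-linked with a negative slope, among them TTC37, TARS and DCTN3, and 4 W-linked with a positive one. That fit does not hold the combination of breed and oxygen fixed.

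Contrasts by label asked whether genes of the sex chromosomes went with oxygen or breed. In limma, hypoxia minus normoxia passed for 0 probe sets in T and S, with 1027 and 1273 at an unadjusted p under 0.05, for 1 in DRW (0.00434% of all) and for 13 in the mean of the breeds (0.0564%). Z-linked probe sets among them numbered 0 in each breed and 2 in the mean, THBS4 and GLRX. No W-linked probe set passed in any contrast. GLRX, the glutaredoxin gene, rose by 1.14 ± 0.14 log2 (adjusted p = 0.0124). The GLRX call was lost without DRW normoxia replicate 1, S normoxia replicate 1, T hypoxia replicate 1 or T normoxia replicate 2 (adjusted p up to 0.0702), and without the intensity trend (adjusted p = 0.131). THBS4, a thrombospondin gene, fell by 0.66 log2 (adjusted p = 0.0329), a call that held in 6 of 10 other settings, with adjusted p up to 0.131 in the rest. It held in 2 of the 12 fits with an array left out, those without DRW normoxia replicate 2 and S hypoxia replicate 1, with adjusted p up to 0.149 in the rest.

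At an unadjusted p under 0.05, Z-linked probe sets with higher values in hypoxia numbered 73 in S (9.41% of Z, beside 2.97% of all) and those with lower values 6 (0.773%, beside 2.55%). In DRW the numbers were 10 (1.29%, beside 3.26%) and 67 (8.63%, beside 3.07%). In T they were 11 and 11 (1.42% each, beside 2.35% and 2.10%), and in the mean of the breeds 36 and 28 (4.64% and 3.61%, beside 4.41% and 3.95%). The HINTW share of the brightest array was 20.0% and 20.4% in S hypoxia and 98.7% and 46.9% in S normoxia. It was 100% and 34.5% in DRW hypoxia and 0.973% and 35.5% in DRW normoxia.

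For the hypoxia effect of S minus that of DRW, 99 Z-linked probe sets had higher and 5 had lower values at an unadjusted p under 0.05, beside 2.28% of all each way, and 0 probe sets passed. With the HINTW signal added as a covariate these numbered 11 and 9 (1.42% and 1.16% of Z, beside 1.92% and 1.12% of all), and the median standard error was 0.56 log2 with the covariate and 0.37 log2 without it. With the covariate the counts were 16 and 17 in S (2.06% and 2.19%, beside 2.77% and 1.76%) and 16 and 21 in DRW (2.06% and 2.71%, beside 1.87% and 2.18%). There the median standard error was 0.34 log2 in S and 0.33 log2 in DRW, against 0.26 log2 in each without the covariate.

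Between breeds, 127 probe sets passed for T minus S (0.551%), 175 for T minus DRW (0.759%) and 306 for S minus DRW (1.33%). On Z these counts were 4, 10 and 14, and 1 to 5, 4 to 15 and 11 to 15 with an array left out. Z-linked probe sets were also counted at an unadjusted p under 0.05. In T minus S, 31 had higher and 94 lower values (3.99% and 12.1% of Z, beside 6.32% and 5.91% of all). In T minus DRW these numbers were 25 and 111 (3.22% and 14.3%, beside 6.40% and 5.85%). In S minus DRW they were 34 and 60 (4.38% and 7.73%, beside 5.54% and 6.18%). With the HINTW signal as a covariate, 19, 46 and 257 probe sets passed (0.0824%, 0.199% and 1.11%). The median standard error was 0.187 log2 for each breed difference without the covariate. With it, the values were 0.224, 0.233 and 0.187 log2, so precision was lost where T was compared. The Z-linked counts at an unadjusted p under 0.05 were then 38 and 27 in T minus S (4.90% and 3.48% of Z, beside 5.05% and 4.37% of all). They were 34 and 41 in T minus DRW (4.38% and 5.28%, beside 4.40% and 3.89%), and 39 and 59 in S minus DRW (5.03% and 7.60%, beside 5.54% and 6.03%). All T arrays were on the high side, so between T and the low arrays of the other breeds, breed and HINTW signal cannot be told apart.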

How the data were processed

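The authors deposited linear signal intensities, 1 per probe set, from GCOS, per the submitters' processing notes. The sources used here do not give its version. With the highest and lowest 2% of values left out, the mean of each array was 500, so the arrays had been scaled. Signals were put on the log2 scale with no further normalization. Of 38535 deposited probe sets, 96 were controls. Of the others, 27168 had 1 gene symbol, 177 several and 11094 none. Chromosomes came from a RefSeq gene table (GRCg7b), used for names and chromosomes alone. Per gene, the probe set with the highest mean signal was used.

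The split, the members and the gene lists were chosen with earlier results of these data known. List genes were matched by current symbol only, a choice made after the lists had been seen. Named genes were all measured W-linked genes, the Z copies of the Z and W list, up to 8 separated genes each way on Z and elsewhere, and the 5 genes with the smallest p of the HINTW slope, by their brightest probe set; MYH7, ALB, GHR, GLRX and THBS4 were chosen after their values were seen. Sides are separated when no high array overlaps a low one. The fits used R 4.3.3 and limma 3.58.1, with an intensity trend and Benjamini-Hochberg adjustment over all probe sets (threshold 0.05), and Python 3.11.15 with pandas 2.3.3, numpy 2.4.6 and matplotlib 3.10.9. The number of arrays limits the precision: the slope fit had 5 residual degrees of freedom and a median standard error of 0.41 log2. Tested on simulated data over 23063 probe sets, the slope fit recovered 0, 5, 21 and 35 of 50 slopes of 0.5, 1, 2 and 4 log2, with 1 false call. Replicate numbers were not used to pair the arrays in the main fits. The 15 correlations of same-numbered deviations between groups were all above 0, at 0.06 to 0.20, and not all over 0.1. Whether same-numbered arrays share a component was not tested. A HINTW covariate for the breed differences, and a Z level over all probe sets, were alternatives chosen after seeing the data.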

Additional observations from a re-analysis of the deposited data

Results flagged for a closer look

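Of 30 sets of values checked for a single distant array, 7 held one, and chance marks about 1 in 20 independent sets. On the high side, LOC107049459 in S normoxia replicate 1 had 9.45 log2, above the other 6 high arrays. On the low side the distant array was DRW normoxia replicate 1 in 6 sets, each time below the other 4 arrays. These 6 sets share 1 array and are not independent. Its log2 signal was 7.74 for HINTW, 6.70 for LOC430910, 6.10 for LOC107049459, 5.79 for LOC431003, 1.92 for UBE2R2L and 1.77 for LOC374195. All of these but HINTW and LOC430910 lay there under the dim limit of 6.31 log2. The Z level of the same array was -0.02, beside -0.13 to -0.03 on the other low arrays.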

How the results depend on the processing

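The 12 arrays, 2 a group, limit every test here, and only the DRW hypoxia pair crosses the split. The slope of Z level on HINTW kept its sign in all settings run, from -0.43 to -0.03 log2 (the last per log2 of HINTW), with exact p of 0.125 to 0.312, and from -0.39 to -0.30 with each array left out (p 0.125 to 0.25). No probe set passed the slope fit with any array left out (0 to 0). It passed for 11, 10 and 14 probe sets with log2 HINTW, the other W-linked genes, and additive terms. Separated probe sets with higher values numbered 62, and 110 without the filter, 34 with a stricter filter, 36 with 1 probe set per gene, 37 with median centring and 110 with a split 0.5 log2 lower. Those with lower values numbered 86, and 56 with 1 per gene and 137 with median centring. With an array left out they were 73 to 143 and 94 to 178, and leaving out an array can only raise them. The higher count passed 1.5 times its value without any array but T hypoxia replicates 1 and 2 and T normoxia replicate 1 (98 to 143). The lower count did so without DRW hypoxia replicate 1 (133), S hypoxia replicates 1 and 2 (178 and 169) and S normoxia replicate 2 (167). Sex-linked probe sets that passed numbered 2 for the mean hypoxia effect, and 1 with the covariate, without the filter or with additive terms, 0 without the trend and 5 with the replicate block (0 to 3 with an array left out). In S they numbered 0, and 1 with 1 per gene (0 to 0). In DRW they numbered 0, and 1 with 1 per gene or the block (0 to 8). For S minus DRW hypoxia they were 0 to 8, and the 8 in both came without DRW normoxia replicate 2. For T minus S they numbered 4, and 2 with the covariate or no filter, 9 with a stricter filter, 1 without the trend, 7 with 1 per gene, 8 with additive terms and 20 with the block (1 to 5; 1 without S hypoxia replicate 1 or any T array). For T minus DRW they numbered 10, and 1 with the covariate or no trend, 6 with 1 per gene and 30 with the block (4 to 15; 4 or 5 without DRW hypoxia replicate 2, DRW normoxia replicate 1, either T hypoxia array or T normoxia replicate 1). For S minus DRW they numbered 14, and 9 without the trend, 22 with additive terms and 29 with the block (11 to 15). The 15 correlations between same-numbered arrays were all above 0 but not all over 0.1, and whether such arrays share a component was not tested. Over the other settings, all probe sets that passed ranged over 0 to 81 for the mean hypoxia effect, 18 to 605 for T minus S, 28 to 579 for T minus DRW and 100 to 711 for S minus DRW, each lowest without the trend and highest with the block. With an array left out they ranged over 2 to 17, 25 to 238, 72 to 204 and 169 to 275. In DRW hypoxia 23 passed without DRW normoxia replicate 2. The cause of these changes was not tested.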

Other observations

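A few probe sets without a gene name were among the separated ones with the largest differences, and were chosen after their values were seen. The first had 8.83 to 9.97 log2 on the high arrays and 4.58 to 8.52 log2 on the low arrays. Its difference was 2.33 log2, and 1.65 log2 without DRW normoxia replicate 1. The other two differed by 1.80 and 1.66 log2. With signals raised to the dim limit the 3 differences were 1.98, 1.10 and 1.49 log2. With the threshold 0.5 log2 lower the sides held 9 and 3 arrays. Of all 23063 probe sets, 73 were then separated with lower values, 25 of them Z-linked. Of 110 with higher values, 5 were W-linked. With it 0.5 log2 higher the sides held 6 and 6 arrays. Then 114 were separated with lower values, 60 of them Z-linked, and 10 of 74 with higher values were W-linked. At the threshold used, 51 of 86 were Z-linked and 11 of 62 W-linked. How easily sides separate depends on their sizes, so these counts are not directly comparable.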
